A study of Rattus norvegicus with 48 samples.

Results

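The cytosines described here are those that differed in sperm methylation between the organochlorine and control lines in the comparison named F1. They are all 1721 rows of the deposited F1 lists of hypermethylated and hypomethylated sites, out of 4937 rows in the lists of 3 generations, which hold 3998 distinct cytosines. Listed cytosines at most 1000 bp apart on a chromosome were joined into loci, which gave 1283 F1 loci. A locus was called hyper- or hypomethylated from the sign of its mean difference. The directions are those of the list names, because the description that accompanies the lists does not say which group was subtracted. Positions refer to the rat genome build Rnor_5.0. Since its gene annotation was not used here, loci are given by chromosome and position, without a gene, exon or intron.

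The study used Sprague-Dawley rats, an outbred laboratory stock. Its 48 samples of epididymal sperm DNA form 8 groups of 6, 1 control and 1 organochlorine group for each of the 4 generation numbers in the labels. Only the F0 founder females were dosed. From 5 weeks of age they were gavaged with corn oil in the control group, or with the POPs Arctic mixture of persistent organic pollutants at 500 µg per kg body weight. Dosing ran for 5 weeks before mating and then through pregnancy to birth, and the males were killed at 90 days of age. The lists speak of F1 to F3 while the sample labels number generations from 1 to 4, so the F1 contrast was not tied to single samples here. Sperm purity, coverage and the levels of the separate animals were not analysed here, and a listed difference therefore carries no replicate error. The sources used here do not give the number of cytosines tested, and the share of them that was called therefore has no value here.

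In mammals DNA methylation sits mostly on the cytosine of CpG dinucleotides, and maintenance methylation copies it to both strands of a CpG. The male germ line erases most of its methylation in the fetus and rebuilds it before birth, so that mature sperm DNA is heavily methylated outside CpG-rich promoters. F1 males were fetuses while their mothers were dosed. Reduced representation bisulfite sequencing reads the ends of CpG-rich restriction fragments after bisulfite has converted unmethylated cytosines, so it covers a chosen fraction of the genome, and the strands of a CpG are read from separate molecules.

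Most F1 loci were hypermethylated, and most held a single cytosine. Hypomethylated loci were fewer, had larger differences and held more cytosines each. The 1012 hypermethylated cytosines, 537 on the plus and 475 on the minus strand, fell into 818 loci, or 1.24 cytosines per locus. The 709 hypomethylated cytosines, 366 plus and 343 minus, fell into 465 loci, or 1.52 per locus. A single cytosine made up 700 of the hypermethylated loci (85.6%) and 356 of the hypomethylated loci (76.6%). Of the 227 loci with several cytosines, 163 had 2, 41 had 3 or 4 and 23 had at least 5. Loci of 5 or more cytosines were hypomethylated in 14 cases and hypermethylated in 9, the reverse of the balance over all loci.

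The absolute difference of hypermethylated cytosines had quartiles of 22.0, 24.99 and 30.5 percentage points and reached 70.6. For hypomethylated cytosines the quartiles were 23.0, 27.7 and 35.1 points, and the highest value was 79.7. Differences of 20 to 25 points made up 50.1% of the hypermethylated and 36.5% of the hypomethylated cytosines. Those of at least 40 points made up 7.41% (75 cytosines) and 14.2% (101 cytosines). Cytosines of the same locus are counted separately in these numbers. A single run on chromosome 6 gave 29 hypomethylated cytosines between -47.2 and -36.9 points. Counted by the largest difference in the locus, 57 hypermethylated and 58 hypomethylated loci lay above 40 points. The authors' minimum of 20 points chose these cytosines, so their sizes are a description without a test. The smallest listed values were 20.0058 and -20.0079 points in the authors' deposited table, and 184 cytosines (10.7%) lay within 1 point of the minimum. Values just outside it are not in the lists. The deposited p-value was 0 for 775 cytosines (45.0%), 394 hypermethylated and 381 hypomethylated, so it does not rank the strongest sites.

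**Figure D1:**
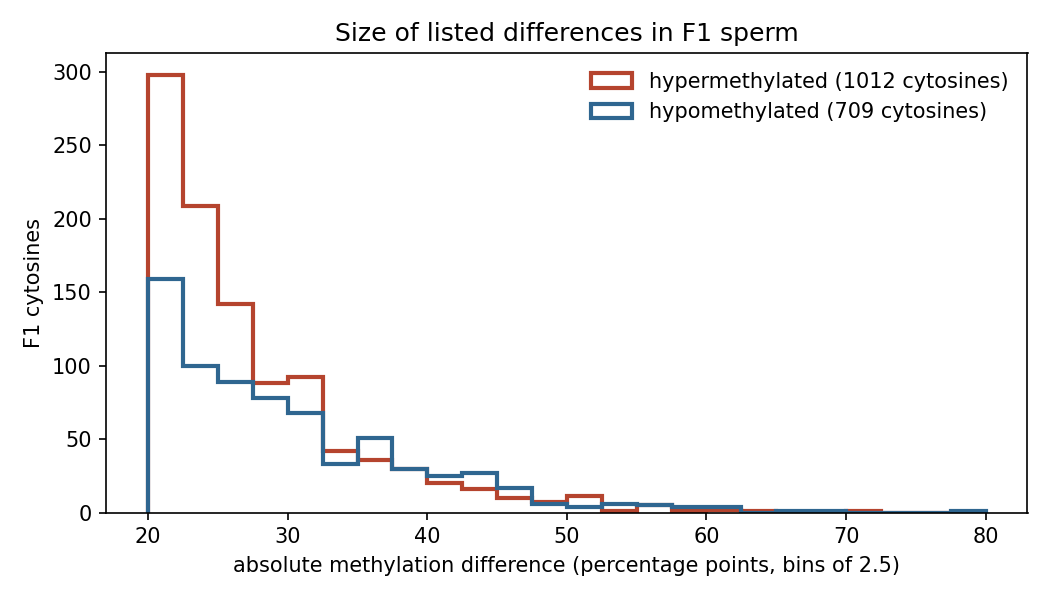
Number of F1 cytosines (vertical axis) by absolute methylation difference in percentage points (horizontal axis, bins of 2.5 points), outlined for 1012 hypermethylated and 709 hypomethylated cytosines. Hypermethylated cytosines outnumber the others in the bins nearest 20 points, and from 40 points the hypomethylated ones are more numerous, 101 against 75. Cytosines of the same locus are counted separately, and by locus 57 hypermethylated and 58 hypomethylated ones lie above 40 points.

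The hypermethylated share was lower in loci with larger differences or more cytosines. It was 63.8% over all 1283 loci (95% exact Clopper-Pearson interval 61.1% to 66.4%). By number of cytosines it was 66.3% of the 1056 loci with 1 cytosine, 53.4% of the 163 with 2 and 48.4% of the 64 with 3 or more. By the largest difference in the locus it was 69.9% of 599 loci at 20 to 25 points, 61.8% of 288 at 25 to 30, 58.4% of 281 at 30 to 40 and 49.6% of 115 above 40 points. Hypermethylated loci were thus in excess up to 40 points, most of all at 20 to 25, and above 40 points the directions were nearly even. These intervals and shares cover counting error only and say nothing of the spread between animals.

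Each end of the ranking was led by chromosome 17. In the authors' deposited table the largest hypermethylated locus spanned 91272438 to 91272690 and had 3 cytosines on the minus strand, at 70.6, 60.2 and 60.6 points. Its neighbour at 91224532 to 91224679, less than 1 Mb away, was the second of the hypomethylated ranking, with 8 cytosines between -69.3 and -46.8 points in the authors' deposited table. The leading hypomethylated locus was a CpG read on both strands, 11662289 on the plus strand at -60.4 points and 11662290 on the minus strand at -79.7 points in the authors' deposited table. Chromosome 17 therefore held loci of both directions among the largest, within a short distance of each other.

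The other leading hypermethylated loci were mostly isolated cytosines. The authors' deposited table had 59.96 points at chromosome 3, 12386460, 57.1 at chromosome 7, 124583149, and 56.7 at chromosome 6, 113625394. It continued with 54.7 points at chromosome 17, 29385508, 51.9 at chromosome 6, 133548683, and 51.8 at chromosome 2, 223335745 in the authors' deposited table. In 3 leading loci both strands of the CpG were listed. They had plus and minus strand values of 63.3 and 57.0 points at chromosome 12, 40199696, of 56.3 and 57.1 at chromosome 14, 50648854, and of 52.0 and 39.6 at chromosome 8, 127356982, in the authors' deposited table.

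Further hypomethylated leaders were -66.9 points at chromosome 10, 18631999, -62.1 at chromosome 19, 65392255, -58.6 at chromosome 7, 115812970, and -58.1 at chromosome 15, 36938226, in the authors' deposited table. Chromosome 14, 46433114, stood at -56.3 points in the authors' deposited table. Of the 10 leading loci in each direction, 6 were single cytosines. A cytosine of the locus was listed again in F2 for 5 of the 10 hypermethylated leaders and 3 of the 10 hypomethylated ones, and in F3 for 5 and 5. Of these leaders, 2 hypermethylated and 5 hypomethylated ones were listed in F1 alone, a difference that was not tested. Over all F1 loci the order was the reverse, with 71.3% of hypermethylated and 55.7% of hypomethylated loci in F1 alone. The leaders were chosen by size, and of all loci above 40 points 41.7% were listed again in F2 and 45.2% in F3. Their counts therefore do not describe the hyper- and hypomethylated loci in general.

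Long runs of cytosines with a single direction were few. The 23 loci of 5 or more cytosines held 195 cytosines (11.3% of all F1 cytosines), each locus had only 1 direction, and they spanned 52 to 324 bp. The range of differences within such a locus was 2.35 to 22.6 points, with a median of 8.71. Over all 193 loci with several cytosines of a single direction, the median range was 3.16 points (quartiles 1.30 and 6.86) and the widest was 24.8. Cytosines of a locus lie within reach of the same fragments and are not independent observations.

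The longest run, on chromosome 6 at 144720006 to 144720227, had many cytosines at repeated distances. Its 29 cytosines were all on the plus strand and hypomethylated, between -47.2 and -36.9 points in the authors' deposited table. Same-strand cytosines 18 bp apart occurred 21 times, those 36 bp apart 16 times and those 2 bp apart 17 times, and 27 of the 29 had a partner at 18 bp. These distances are among 406 same-strand pairs of cytosines in the run, so 18 bp made up 5.17% of them. The run on chromosome 10 at 43465411 had 110 such pairs, of which its commonest distance made up 3.64%. This share was 4.76% of 21 pairs at chromosome 6, 131716514, and at chromosome 10, 101048175. In the remaining loci it was above 5.17%, with 7.14% of 56 pairs at chromosome 6, 117093675, and 11.1% of 27 at chromosome 6, 113575061. A distance found in only 1 of 21 pairs already has a share of 4.76%, so shares from few pairs cannot be compared with 5.17% of 406. In the other 22 loci no distance occurred in more than 4 pairs, against 21 in the longest run. Those loci also had fewer pairs in all, and whether the 18 bp spacing was particular to the longest run was not tested. In F2, 27 of the 29 cytosines of the longest run were listed again, and every one had a smaller difference there. The change in absolute size had a median of -16.2 points and lay between -21.2 and -10.8. How reads were placed on this interval was not analysed here.

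The next runs were listed in F1 alone and differed between strands. Chromosome 10, 43465411 to 43465582, had 11 plus and 11 minus strand cytosines with means of -29.8 and -33.1 points in the authors' deposited table, and the minus strand value was the larger in size in 9 of its 10 CpGs listed on both strands. Chromosome 6, 117093675 to 117093813, was hypermethylated at 16 cytosines with means of 27.7 points on the plus and 23.6 on the minus strand in the authors' deposited table, with the plus strand larger in 7 of 7 CpGs. Chromosome 6, 113575061 to 113575208, had 7 plus strand cytosines with a mean of -33.0 points and 4 minus strand cytosines with a mean of -27.2 in the authors' deposited table, again with the plus strand larger in 4 of 4. Within each of these runs the strand with the larger difference was nearly the same from CpG to CpG, although the values of all strands kept a single direction.

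**Figure D2:**
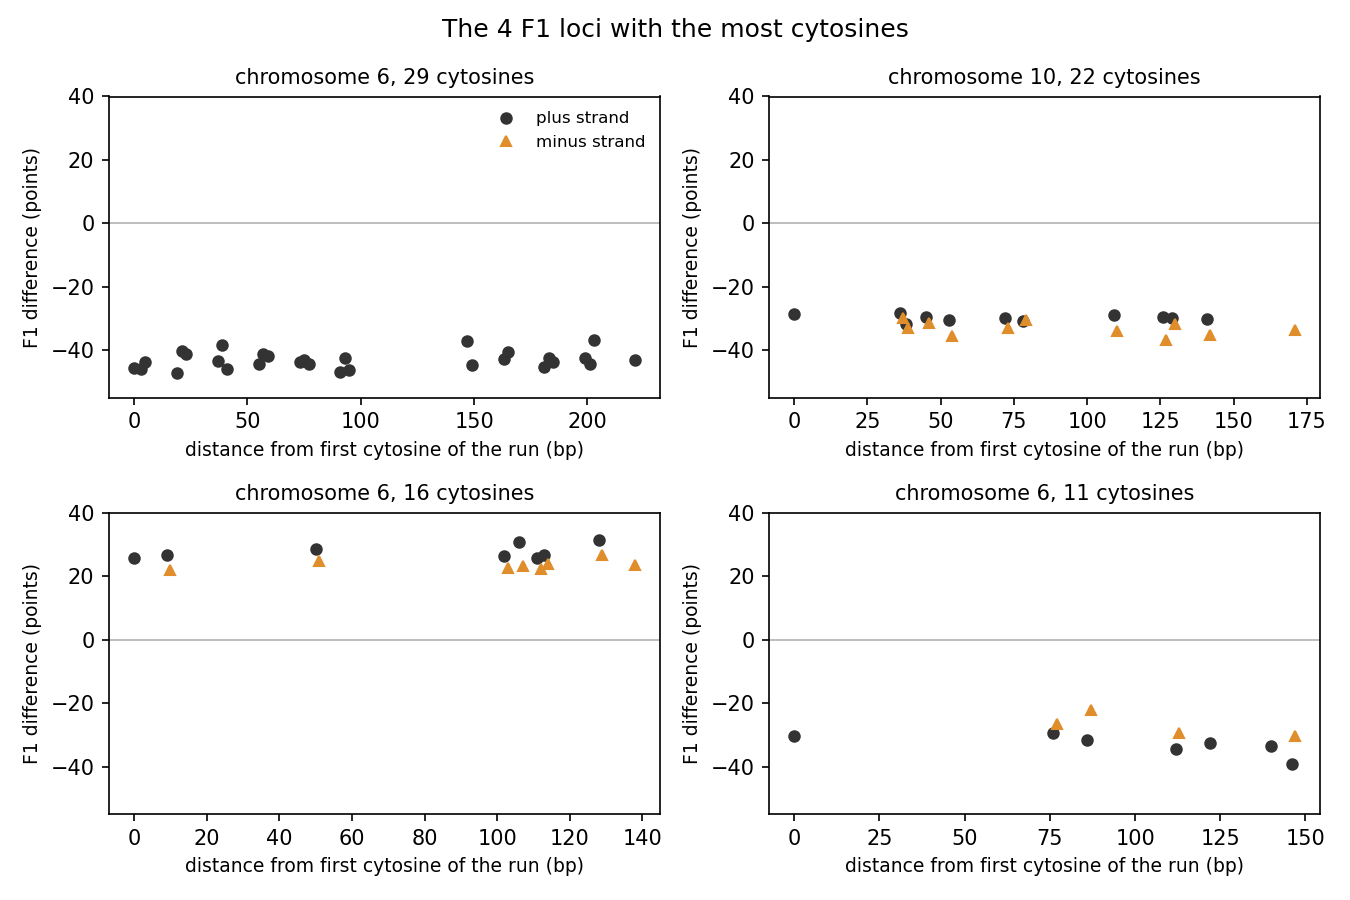
Methylation difference in percentage points (vertical axis) at each cytosine of the 4 F1 loci with the most cytosines, against distance from the first cytosine of the run in bp (horizontal axis), with circles for the plus and triangles for the minus strand. The 29 cytosines of the first panel lie in regularly spaced groups between -47.2 and -36.9 points, and in the other panels plus and minus strand values form offset bands.

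Runs that were listed again did not all keep their size. The chromosome 17 run at 91224532 had a mean of -56.2 points over 8 cytosines in F1, and an F3 mean of -30.2 over the same 8, in the authors' deposited table. Chromosome 10, 101048175 to 101048334, had 7 plus strand cytosines between 32.0 and 44.5 points, and for 6 of them the authors' deposited table gave an F3 mean of 42.5. Chromosome 4, 242710623 to 242710700, had 6 plus strand cytosines with a mean of 29.2 points in F1 and of 45.8 in F2 in the authors' deposited table. Chromosome 16, 72824678 to 72824769, had means of 31.1 points in F1 and 28.5 in F2 over the same 7 cytosines in the authors' deposited table. On chromosome 9, 117687691 to 117687814, the 9 cytosines of F1 had a mean of -29.2 points, while F2 held 4 other cytosines with a mean of -21.7 and none in common in the authors' deposited table. The chromosome 17 run thus had smaller differences in the later list, the chromosome 4 run larger ones, and the chromosome 10 and chromosome 16 runs similar ones.

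The remaining runs of the ranking held 6 or 7 cytosines each. Hypomethylated ones lay on chromosome 17 at 82097589 (mean -31.5 points), chromosome 6 at 131716514 (-21.5), chromosome 4 at 8475957 (-38.1) and chromosome 8 at 107699785 (-31.3) in the authors' deposited table. Hypermethylated runs of 6 cytosines lay on chromosome 2 at 262515198 (mean 26.6 points) and chromosome 4 at 14490835 (26.3) in the authors' deposited table.

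The strands of a CpG gave similar differences where both were listed, but that was seldom the case. After minus strand positions were shifted by 1 base, the F1 cytosines belonged to 1576 CpGs, of which 145 (9.20%) were listed on both strands and 1431 on a single strand. Whether the other strand was covered and fell below the minimum, or was not covered, cannot be read from the lists. In 141 CpGs the strands had the same direction, 64 hypermethylated and 77 hypomethylated. The gap between strands had a median of 3.61 points (quartiles 2.01 and 7.34). It was under 5 points in 85 of them (60.3%) and over 10 in 19 (13.5%). The absolute sizes of the strands had a Pearson correlation of 0.716 and a Spearman correlation of 0.609 over these 141 CpGs, which lie in at most 112 loci and share their animals. The widest gap was at chromosome 8, 22811961, with 44.8 points on the plus and 20.1 on the minus strand in the authors' deposited table. At chromosome 16, 72824698, the authors' deposited table had 43.4 and 22.2 points on the strands. The other 2 CpGs of that run listed on both strands also had the larger value on the plus strand.

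In 4 CpGs the strands had opposite signs. The authors' deposited table gave 21.1 and -25.3 points on chromosome 2 at 76911023 and 76911024, and -23.7 and 30.5 points on chromosome 3 at 158896094 and 158896095. It also gave 22.6 and -34.1 points on chromosome 7 at 45308896 and 45308897, and 20.7 and -25.9 points on chromosome 8 at 21246487 and 21246488, in the authors' deposited table. The chromosome 8 CpG was listed in F3 with the same signs, 30.6 points on the plus and -34.8 on the minus strand in the authors' deposited table. For this CpG opposite signs on the strands were thus recorded in the F1 and F3 contrasts. The CpGs on chromosomes 2, 3 and 7 were not listed in F2 or F3.

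Loci that held both directions were uncommon and small. There were 34 of them among the 227 loci with several cytosines, 26 with 2 cytosines, 5 with 3 and 3 with 4. The nearest cytosines of opposite direction lay 1 to 949 bp apart with a median of 54.5 bp, and in 24 loci they lay within 100 bp. Chromosome 7, 26776946 to 26777270, had -58.3, -57.2 and -45.0 points at 3 cytosines and 26.3 at the last in the authors' deposited table. Chromosome 5, 118671569 to 118671684, ranged from -33.9 to 41.8 points and chromosome 7, 22572684 to 22572782, from -32.3 to 31.4 in the authors' deposited table. Chromosome 14, 6922171 to 6922224, ranged from -53.0 to 35.3 points, chromosome 12, 30057378 to 30057470, from -47.3 to 20.5, and chromosome 7, 45308896 to 45308960, from -34.1 to 37.0 in the authors' deposited table. Chromosome 15, 68258836 to 68258910, ranked among the leading hypomethylated loci, had -61.3 and 20.8 points at cytosines 74 bp apart in the authors' deposited table. In these loci large differences of opposite sign stood close to each other.

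Beyond 1 kb, neighbouring loci agreed in direction about as often as the balance of directions gives. Of adjacent loci 1 kb to 1 Mb apart, 386 of 679 (56.8%, exact interval 53.0% to 60.6%) had the same direction. The hyper- and hypomethylated shares alone give 53.8%, which lies inside this interval. The same direction was found for 17 of 34 at 1 to 10 kb, 90 of 155 (58.1%) at 10 to 100 kb and 279 of 490 (56.9%) at 100 kb to 1 Mb. It was 315 of 584 (53.9%) at distances above 1 Mb. For loci 1 kb to 1 Mb apart, it was 159 of 300 (53.0%) at a minimum of 25 points and 87 of 142 (61.3%) at 30. The hypermethylated shares were then 58.3% and 55.8%, nearer to even than 63.8%. What the balance alone gives at these minimums was not calculated, so the agreement there was not compared with it.

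F1 loci lay on 20 chromosomes, and hypermethylated loci were in the majority on 19 of them. The interval of the hypermethylated share lay wholly above 50% on 9 chromosomes, and on 18 it held the share over all loci, 63.8%. Chromosome 13 had the highest share, 40 of 50 loci (80.0%, exact interval 66.3% to 90.0%), followed by chromosome 12 with 46 of 61 (75.4%, 62.7% to 85.5%). Chromosome 4 had the lowest, 29 of 59 (49.2%, 35.9% to 62.5%), followed by chromosome 19 with 23 of 45 (51.1%, 35.8% to 66.3%). Chromosome 1 had the most loci, 116, of which 82 were hypermethylated. The number of cytosines covered on each chromosome is not known, so neither density nor the chromosome shares were tested.

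**Figure D3:**
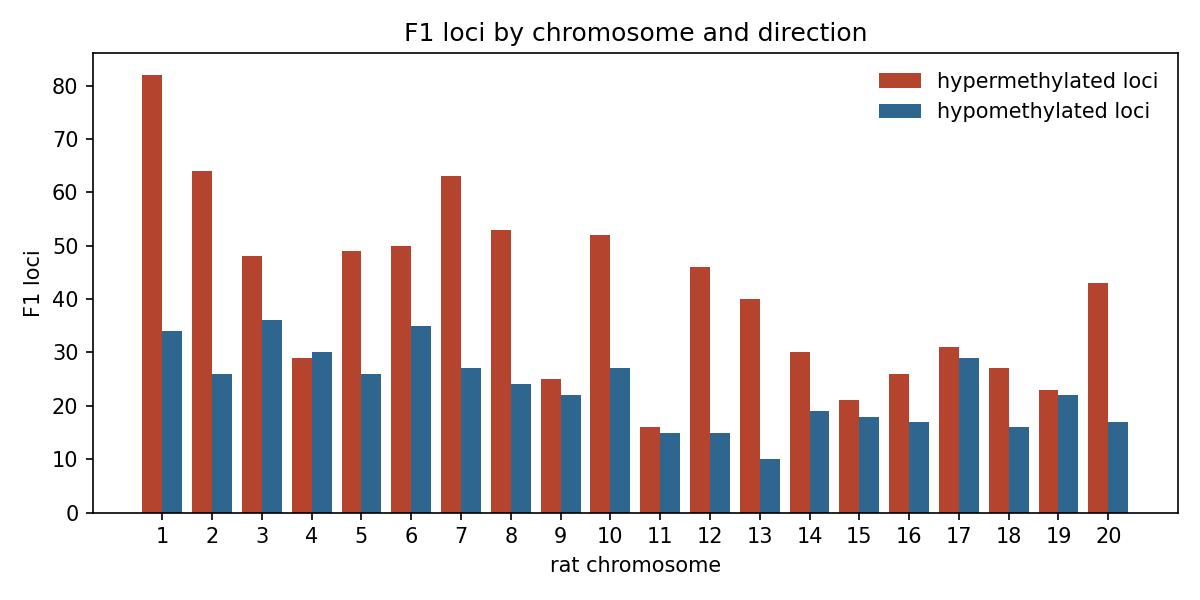
Number of F1 loci (vertical axis) that were hypermethylated and hypomethylated on each rat chromosome (horizontal axis). The hypermethylated bar is the taller on every chromosome shown except chromosome 4, where 29 hypermethylated loci stand beside 30 hypomethylated ones.

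A few stretches held many F1 loci. When loci at most 1 Mb apart were chained, the 1283 loci formed 604 stretches, of which 362 held 1 locus and 11 held 10 or more, with 168 loci in those 11. The stretch with the most loci was on chromosome 20, 8308383 to 15366778, a length of 7.06 Mb with 36 of that chromosome's 60 loci. Of the 36 loci 28 were hypermethylated. The difference of largest absolute size was -41.8 points in the authors' deposited table, in a locus of both directions at 12246857 that was called hypomethylated. A cytosine was listed again in F2 at 15 of the 36 loci, all 15 in the same direction, and in F3 at 9, 8 of them in the same direction. Outside the stretch 15 of the chromosome's 24 loci (62.5%) were hypermethylated. This stretch therefore held many F1 loci, mostly of modest size. Over all 1283 F1 loci, 20.1% were listed again in F2 and 23.5% in F3, and the stretch was not tested against these shares. Of all F1 loci listed again, 93.4% kept their direction in F2 and 73.5% in F3, so keeping it was not particular to this stretch.

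The next stretches by number of loci differed in direction. Chromosome 12, 38556483 to 43730640, had 17 loci with 10 hypermethylated, against 36 of 44 (81.8%) on the rest of the chromosome. There 5 loci were listed again in F2, all in the same direction, and 9 in F3, 7 of them in the same direction. Chromosome 7, 10984681 to 14509762, had 16 loci with 11 hypermethylated, of which 2 were listed again in F2 and 0 in F3. Chromosome 17, 10859766 to 15913714, had 15 loci with 11 hypermethylated, against 20 of 45 (44.4%) elsewhere on it, and 7 were listed again in F2, all in the same direction, and 4 in F3, 3 of them in the same direction. Chromosome 19, 64799947 to 67153858, had 14 loci with 6 hypermethylated, of which 1 was listed again in F2 and 1 in F3. A sixth stretch, on chromosome 3 at 10397449 to 14404761, was chosen after its values were seen. It had 11 hypomethylated loci among 13, with locus means between -49.99 and -21.6 points in the authors' deposited table, while 46 of 71 loci (64.8%) on the rest of chromosome 3 were hypermethylated. Its 6 loci listed again in F2 and its 3 listed again in F3 all kept their direction. Over all F1 loci, 258 of 1283 (20.1%) were listed again in F2 and 302 (23.5%) in F3. No difference between a stretch and the rest of its chromosome, or all F1 loci, was tested.

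The lists of F2 and F3, which come from other animals, gave a measure that did not enter the choice of the F1 loci. Hypomethylated F1 loci were listed again more often than hypermethylated ones. A locus counted as listed again when at least 1 of its cytosines, at the same position and strand, was in the later list. In F2 this held for 126 of 465 hypomethylated loci (27.1%, exact interval 23.1% to 31.4%) and 132 of 818 hypermethylated loci (16.1%, 13.7% to 18.8%). The difference, hypermethylated minus hypomethylated, was -11.0 percentage points (two-sided Fisher's exact test, Benjamini-Hochberg adjusted p = 9.0e-06). In F3 it held for 140 hypomethylated loci (30.1%, 26.0% to 34.5%) and 162 hypermethylated loci (19.8%, 17.1% to 22.7%), a difference of -10.3 points (Fisher's exact test, adjusted p = 3.8e-05). These p-values cover the counting of loci only, because each generation gave 1 contrast of groups, and loci near each other are not independent.

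Size and number of cytosines moved with this difference, in classes of which those by size and that of 1 cytosine were chosen after seeing the data. Among loci of 1 cytosine the difference was -13.8 points in F2 and -12.2 in F3 (Fisher's exact test, adjusted p = 1.0e-07 and 6.4e-06). Among loci of 2 or more cytosines it was 7.15 and 4.19 points the other way (Fisher's exact test, adjusted p = 0.52 and 0.58). For loci whose largest difference was 20 to 25 points, 9.31% of 419 hypermethylated and 21.7% of 180 hypomethylated loci were listed again in F2, and 11.2% and 20.6% in F3, differences of -12.4 and -9.34 points (Fisher's exact test, adjusted p = 0.00019 and 0.0045). At 25 to 30 points the shares were 16.3% of 178 and 27.3% of 110 in F2, and 20.2% and 39.1% in F3, so that the difference was -11.0 and -18.9 points (Fisher's exact test, adjusted p = 0.035 and 0.0013). At 30 to 40 points the shares were 24.4% of 164 and 28.2% of 117 in F2, and 30.5% and 31.6% in F3. Above 40 points the shares were 42.1% of 57 and 41.4% of 58 in F2, and 50.9% and 39.7% in F3. With the minimum difference of all lists raised to 25 points the difference was -5.66 points in F2 and -3.86 in F3, and neither passed (Fisher's exact test, adjusted p = 0.17 and 0.25). With only loci above 30 points the difference was -3.61 points in F2 and 1.46 in F3, and neither passed (Fisher's exact test, adjusted p = 0.83 for each). Whether the difference itself varied between size classes was not tested.

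Larger F1 differences were more often listed again. In F2 the share was 13.0% of loci at 20 to 25 points, 20.5% at 25 to 30, 26.0% at 30 to 40 and 41.7% above 40 points. In F3 it was 14.0%, 27.4%, 31.0% and 45.2% in the same classes. F1 cytosines shared with F2 had a median size of 29.7 points in F1, against 25.2 for the 1377 not shared. The later lists have the same minimum of 20 points, and these shares were not tested.

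**Figure D4:**
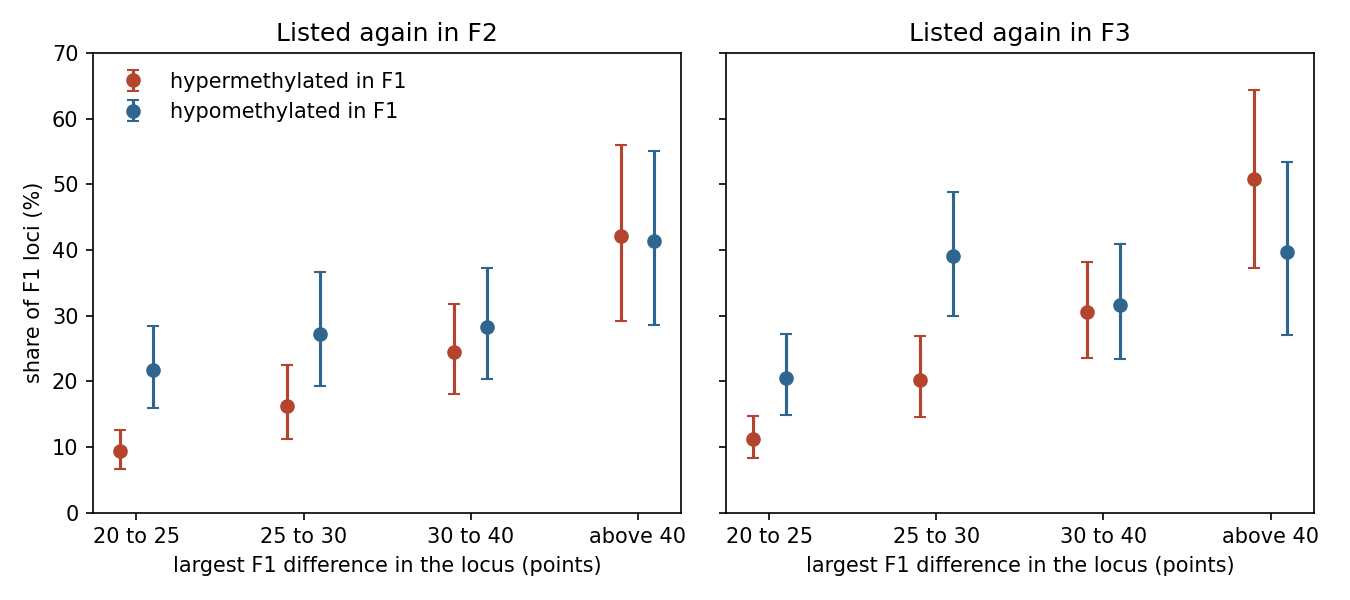
Share of F1 loci in percent (vertical axis) with a cytosine listed again in F2 (left) or F3 (right), by the largest F1 difference in the locus in percentage points (horizontal axis), for hyper- and hypomethylated loci. Points are shares and bars 95% exact intervals over loci, and at 20 to 25 points the F2 shares are 9.31% and 21.7%, while above 40 points they are 42.1% and 41.4%.

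Most F1 loci were not listed again at all. In F1 alone there were 842 loci (65.6%), namely 583 of the hypermethylated (71.3%) and 259 of the hypomethylated ones (55.7%). A further 139 were listed again in F2 but not F3, 183 in F3 but not F2, and 119 in both. Of these 119, 102 (85.7%) kept their F1 direction in both later lists, 51 of them hypermethylated and 51 hypomethylated. Another 10 kept it in F2 and not F3, 3 in F3 and not F2, and 4 in neither.

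No difference between hyper- and hypomethylated loci in keeping their direction passed the test. In F2 it was kept by 124 of 132 hypermethylated (93.9%) and 117 of 126 hypomethylated loci (92.9%), a difference of 1.08 points (exact test of Fisher, two-sided, with adjusted p = 0.80). In F3 it was kept by 114 of 162 (70.4%, exact interval 62.7% to 77.3%) and 108 of 140 (77.1%, 69.3% to 83.8%), a difference of -6.77 points (Fisher's exact test, adjusted p = 0.39). These tests do not show that the directions were kept equally often.

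At shared cytosines the direction was mostly retained, while the sizes of the differences had little relation between generations. Of 344 cytosines in F1 and F2, 325 had the same direction, 9 were hypermethylated in F1 and hypomethylated in F2, and 10 the other way. The signed differences had a Pearson correlation of 0.855 and a Spearman correlation of 0.742. Among the 325 with the same direction, the absolute sizes had correlations of only 0.116 and 0.0933. Of 381 cytosines in F1 and F3, 292 had the same direction, 54 were hypermethylated in F1 and hypomethylated in F3, and 35 the other way. The signed correlations were 0.535 and 0.464, and those of the sizes among the 292 were 0.0522 and 0.0465. Each list begins at 20 points and neighbouring cytosines share fragments, so these correlations are a description without a test. The median change in absolute size over all shared cytosines was 0.804 points from F1 to F2 (quartiles -7.19 and 10.3) and 0.835 points from F1 to F3 (-6.23 and 8.07).

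**Figure D5:**
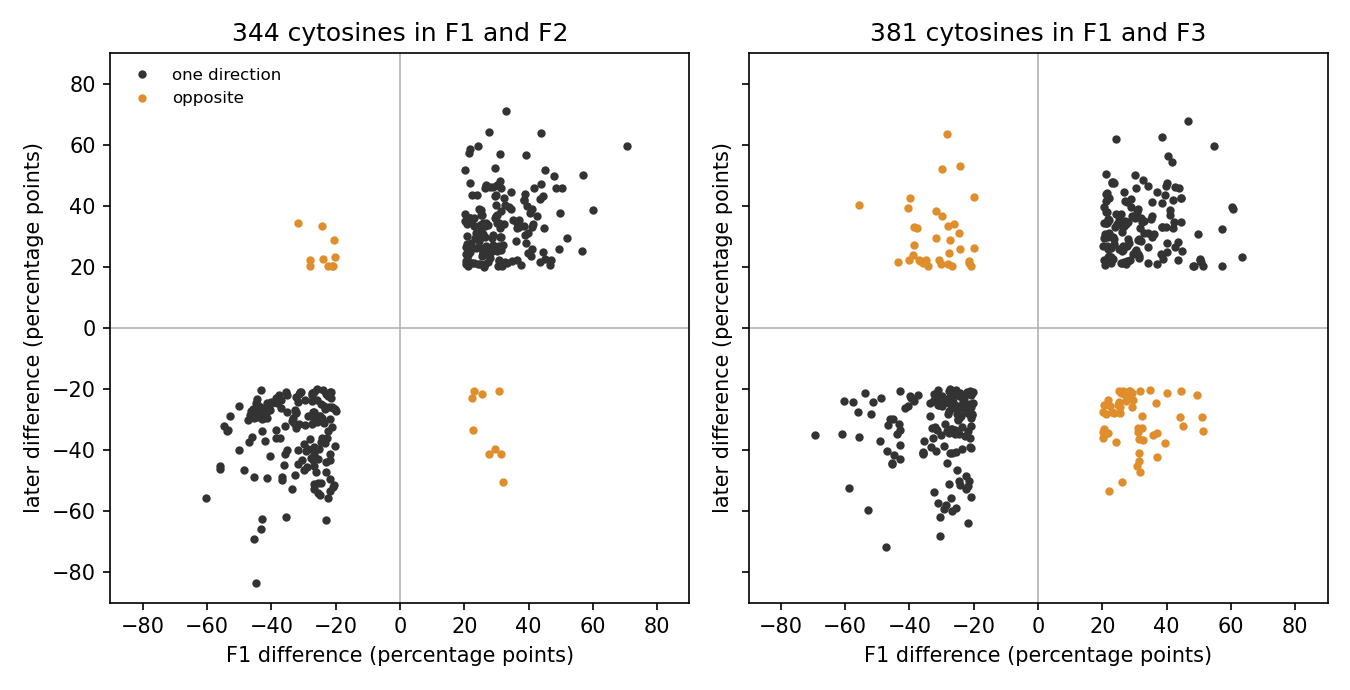
Methylation difference in F2 (left, 344 cytosines) or F3 (right, 381 cytosines) on the vertical axis against the difference in F1 on the horizontal axis, both in percentage points, with darker points for the same direction and lighter points for opposite directions. Opposite points number 19 in the left and 89 in the right panel, and within a quadrant the later value shows little relation to the F1 value.

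Some single cytosines had large differences of the same sign in all 3 lists. At chromosome 2, 223676841, the F1, F2 and F3 values of the authors' deposited table were 44.4, 43.3 and 42.6 points. At chromosome 8 it gave 41.5, 45.8 and 54.5 points at 18955531, and 38.4, 41.8 and 62.4 points at 19117409, in the authors' deposited table. Chromosome 3, 82835259, stood at 40.5, 37.5 and 56.3 points, and chromosome 1, 197462400, at -35.8, -41.2 and -40.8 points in the authors' deposited table. Chromosome 14, 78138497, stood at -46.9, -37.3 and -40.2 points, while the cytosine at 78138546 on the same strand was at 36.0 points in F1 in the authors' deposited table. The values on chromosome 12 at 39426529 were -45.3, -69.1 and -44.1 points in F1 to F3 order in the authors' deposited table. On chromosome 11 they were 43.9, 63.9 and 45.8 points at 28401647, and -44.9, -83.7 and -41.5 at 29043818, in the authors' deposited table. The values of the 3 contrasts lay within 2 points of one another at the chromosome 2 site. The F3 value had the largest size at the chromosome 8 and chromosome 3 sites, and the F2 value at the chromosome 11 and chromosome 12 sites.

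Later values of the F1 leaders were smaller at most sites and close to the F1 value at a few, and chromosome 4, 13461000, turned direction in F3. The leaders were chosen by the size of their F1 difference, so smaller later values cannot be told apart from that choice. The leading hypermethylated cytosine, chromosome 17, 91272438, had an F2 value of 59.5 points in the authors' deposited table, where the other 2 cytosines of its locus had an F3 mean of 39.2. The plus strand of the leading hypomethylated CpG, chromosome 17, 11662289, had an F2 value of -55.8 and an F3 value of -24.1 points in the authors' deposited table. Chromosome 7, 124583149, had F1, F2 and F3 values of 57.1, 49.9 and 32.3 points in the authors' deposited table. Chromosome 17, 29385508, had an F1 value of 54.7 and an F3 value of 59.7 points, and chromosome 7, 115812970, values of -58.6 and -52.4, in the authors' deposited table. From F1 to F3, chromosome 12, 40199696, fell from 63.3 to 23.2 points and chromosome 14, 50648855, from 57.1 to 20.2 in the authors' deposited table. From F1 to F2, chromosome 6, 113625394, fell from 56.7 to 25.2 points, chromosome 2, 223335745, from 51.8 to 29.4 and chromosome 3, 12386460, from 59.96 to 38.5 in the authors' deposited table.

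Reversals of direction were ranked by the smaller of the absolute differences, and the 8 leading ones all lay between F1 and F3. The first was at chromosome 4, 13461000, where the F1, F2 and F3 values of the authors' deposited table were -55.8, -46.1 and 40.2 points. In the authors' deposited table chromosome 8, 121126324, went from 51.2 points in F1 to -33.8 in F3, and chromosome 8, 127378048, from 39.5 to -37.7. Chromosome 1, 266628329, went from 36.9 to -42.2 points, chromosome 10, 19152984, from 35.7 to -35.0, and chromosome 12, 42903190, from 37.1 to -34.5 in the authors' deposited table. Chromosome 4 held 2 more of the 8, from -39.9 to 42.5 points at 17420801 and from -40.3 to 39.3 at 17906663, in the authors' deposited table.

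The reversals on chromosome 4 between F1 and F3 lay at its start, a pattern chosen after the values were seen. Of its 13 F1 loci listed again in F3, the 6 between 7769327 and 17906663 all had the opposite direction in F3, and 5 of the 6 were hypomethylated in F1. None of the 7 from 54580338 to 239025118 was opposite. Further values in the first group were -24.6 and 31.0 points at 7769327, 34.8 and -20.4 at 8176722, and -37.5 and 32.8 at 17528366 in F1 and F3 in the authors' deposited table. Only 13461000 of these 6 was listed in F2 as well, and there it kept its F1 direction. Reversals were not confined to chromosome 4. Over all chromosomes 80 of 302 F1 loci listed again in F3 (26.5%) were opposite, with 9 of 18 on chromosome 2 and 7 of 16 on chromosome 5. On chromosome 10 it was 7 of 19, and most of these 7 also lay near 1 end, between 1045851 and 19152984. The difference between the ends of chromosome 4 was not tested.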

How the data were processed

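Sperm DNA of 48 samples was measured by reduced representation bisulfite sequencing, and only the lists of differing cytosines were analysed. The deposited values are the authors' group differences in percentage points, with the authors' p-value and q-value per cytosine. Per the description that came with the deposited lists, the authors required a false discovery rate below 1% and a difference of at least 20 points. The submitters' processing notes name methylKit 0.9.4, Bismark 0.14.5, Trim Galore 0.4.0, bedtools 2.17, SAMtools 1.2, CASAVA and the build Rnor_5.0. The sources used here do not give their roles, settings, coverage minimum or strand handling, and the depth is unknown.

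Listed cytosines were merged at 1000 bp. Shares have 95% exact Clopper-Pearson intervals. Hyper- and hypomethylated loci were compared by two-sided Fisher's exact tests with Benjamini-Hochberg adjustment over the 2 later generations at 0.05. The calculation was also run on simulated lists, in which each cytosine was listed again independently of its neighbours. Those lists therefore do not show the error rate of the test in the deposited lists. Alternatives were merging at 100 bp, 10000 bp and 1 Mb, minimums of 25 and 30 points, q of at most 1e-05, loci by number of cytosines, and others named in the closing part. Loci were named by a rule: the 10 largest in each direction, up to 15 with at least 5 cytosines, up to 10 listed in all 3 generations, up to 8 turning direction, all opposite strands, up to 6 of both directions, the 5 stretches with the most loci and the 4 chromosomes with extreme shares. The members and lists were chosen with earlier results of these data known. A planned gene context was not run, since Rnor_5.0 gene annotation was not used here. Calculations used SciPy 1.17.1, pandas 2.3.3 and numpy 2.4.6 in Python 3.11.15, and figures matplotlib 3.10.9.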

Additional observations from a re-analysis of the deposited data

How the results depend on the processing

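No paired analysis was possible because the lists hold group differences without sample values, and for the same reason no replicate could be left out. Of 99 alternatives, 68 kept the direction and the side of the threshold, or stayed within the spread. Merging at 1 Mb left 604 loci, with 27.5% listed again in F2, 31.6% in F3 and 89.2% keeping their direction in F2, and the median size, hyper- minus hypomethylated, turned from -2.15 to 0.56 points. At a minimum of 25 points there were 684 loci, 58.3% hypermethylated, 53.0% of neighbours with the same direction, 97.2% keeping direction in F2 and 20.9% listed again in F3. The relisting difference, hyper- minus hypomethylated, was then -5.66 points in F2 and -3.86 in F3, and that of direction kept in F2 was -2.60 (Fisher's exact test, adjusted p = 0.17, 0.25 and 0.62). At 30 points there were 396 loci, with corresponding values of 55.8%, 61.3%, 96.2% and 19.4%, and of -1.11, 5.15 and -1.87 points (Fisher's exact test, adjusted p = 0.80, 0.41 and 1). Counted as single cytosines, 58.8% were hypermethylated. Among loci of at least 2 cytosines 52.0% were, the median difference was -0.66 points, 32.2% and 36.1% were listed again in F2 and F3, and the relisting differences were 7.15 and 4.19 points. The alternatives that follow, like the other classes of locus size and the loci of 1 cytosine in the report, were chosen after seeing the data. With any later cytosine within 1000 bp, 26.5% of loci were listed again in F3. Among loci above 30 points the relisting differences were -3.61 and 1.46 points. The cause of these changes was not tested. The unknown coverage limits every difference near 20 points, and the stricter minimums also left fewer loci to count.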
